A study of Homo sapiens with 17 samples.

Results

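The 38 genes described here belong to glycolysis and to the response to low oxygen. They comprised 19 genes of glycolysis and its control, 3 transporters of glucose or lactate, 5 genes of oxygen sensing and 11 genes known to be induced by low oxygen. They were named by function, and each was read through its probe set of highest mean log2(intensity + 16). Of the 38 genes, 36 had a probe set with a single gene symbol and 35 passed the filter on low intensity, among 13675 genes tested in all. The genes CA9 and SLC16A3 had no such probe set and were not analysed here. SLC2A3, a glucose transporter of neurons, had intensities of 0.6 to 12.7 on the 17 arrays, below the filter, and was not tested.

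Gene expression was measured in 2 clones, c8 and c6, of IMR32. This human line was derived from a neuroblastoma, carries amplified MYCN and was grown here in DMEM with fetal calf serum. Both clones carry a construct from which doxycycline induces NOTCH3IC, the active intracellular domain of the receptor NOTCH3, and each clone is a single derived line. Total RNA was hybridised to 1 array per clone and time, at times 0, 4, 8, 12, 24, 48, 72 and 96 in clone c8 and also at time 120 in clone c6. The labels give no unit for the times. Below, late stands for times 48, 72 and 96, early for times 4, 8 and 12, and start for time 0. All arrays after time 0 are of cells given doxycycline, so time in culture, the drug and NOTCH3IC cannot be told apart. Each array read the RNA of a whole culture, so fewer cells expressing a gene and less RNA per cell cannot be told apart either.

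NOTCH3 and the Notch targets HES1, HEY1 and HEYL all rose late against start, NOTCH3 by 1.88 ± 0.19 on the log2 scale (limma adjusted p = 1.03e-05), HEY1 by 5.53 ± 0.27 (adjusted p = 1.08e-08) and HES1 by 2.86 ± 0.33 (adjusted p = 4.39e-05). Deposited intensities had been scaled to a trimmed mean of 100.01 on each array. The array medians were 14.6 to 19.3, with the lowest on the time 0 array of clone c6.

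Cells sense oxygen through transcription factors made of an unstable alpha subunit, encoded by HIF1A or EPAS1, and a stable partner, encoded by ARNT. When oxygen is present, prolyl hydroxylases of the EGLN family mark the alpha subunits, which the VHL complex then sends for degradation. The amount of alpha subunit is therefore set largely at the protein, which arrays do not read. In low oxygen the factors bind a short DNA element near genes that raise glucose uptake, glycolysis, vessel growth and mitophagy, and EPAS1 is known for its expression in the sympathetic lineage and in neuroblastoma.

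Stretches around the transcription start carry candidate copies of this element in many of these genes. RefSeq promoter sequences of build GRCh38.p14, each running from 250 bases before to 50 bases after an annotated start, were available for 33 of the 38 genes, with 61 starts in all. The core of the element, ACGTG or GCGTG on either strand, was present in 40 of the 61 (65.6%), against 48.4% of all 35116 promoters in the table. The letters TGGGAA, the core bound by the Notch partner RBPJ, were present in 7 of the 61 (11.5%), against 24.0% of all promoters. Several genes, HK1 and PFKM among them, have more than 1 start, some with overlapping windows, so the 61 are not independent. Windows of CA9 and SLC16A3, which were not analysed on the arrays, are among them. A match describes letters in the window and is not a bound site. Shown are the sequences of EPAS1 and SLC2A1, which were higher in the late arrays, of BNIP3, which was lower than at the start, and of LDHA, an abundant gene that passed no test over time. Each is printed in the direction of its gene, with both cores in capitals.
EPAS1: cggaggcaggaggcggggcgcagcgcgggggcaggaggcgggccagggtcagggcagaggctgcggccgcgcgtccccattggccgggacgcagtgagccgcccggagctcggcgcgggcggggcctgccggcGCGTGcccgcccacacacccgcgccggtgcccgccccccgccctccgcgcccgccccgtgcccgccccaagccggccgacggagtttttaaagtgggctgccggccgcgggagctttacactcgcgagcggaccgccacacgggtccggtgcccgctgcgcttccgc
SLC2A1: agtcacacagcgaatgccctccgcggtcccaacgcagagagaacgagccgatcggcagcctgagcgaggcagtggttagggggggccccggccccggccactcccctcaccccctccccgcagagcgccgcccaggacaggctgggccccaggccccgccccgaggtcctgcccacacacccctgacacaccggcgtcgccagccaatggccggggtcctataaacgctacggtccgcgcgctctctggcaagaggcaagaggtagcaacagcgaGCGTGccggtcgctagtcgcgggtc
BNIP3: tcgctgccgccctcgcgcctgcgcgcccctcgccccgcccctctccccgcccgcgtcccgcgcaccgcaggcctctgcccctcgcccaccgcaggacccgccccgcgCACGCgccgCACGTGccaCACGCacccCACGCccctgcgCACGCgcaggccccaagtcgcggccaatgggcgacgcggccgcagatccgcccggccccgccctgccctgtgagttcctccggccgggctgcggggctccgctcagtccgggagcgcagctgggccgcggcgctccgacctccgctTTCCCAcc
LDHA: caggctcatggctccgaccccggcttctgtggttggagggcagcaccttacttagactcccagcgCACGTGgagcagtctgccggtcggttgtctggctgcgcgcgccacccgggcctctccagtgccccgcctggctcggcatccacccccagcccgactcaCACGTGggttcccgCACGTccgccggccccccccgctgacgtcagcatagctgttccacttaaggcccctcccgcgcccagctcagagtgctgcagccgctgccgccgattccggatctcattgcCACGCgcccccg
The EPAS1 window (chr2:46297157-46297456, plus strand) holds 1 match to the hypoxia core, whose first base lies at position -117 from the start. The SLC2A1 window (chr1:42958819-42959118, minus strand) holds 1, at position 25 after the start. The windows of BNIP3 (chr10:131981874-131982173, minus strand) and of the first of 2 LDHA starts (chr11:18394313-18394612, plus strand) hold 6 each, counted on both strands. CACGTG, which reads the same on both strands and counts as 2 of these matches, occurs 1 time in BNIP3 and 2 times in LDHA, against 7.26% of all promoters with at least 1 copy. BNIP3 also holds 1 match to TGGGAA, read on the opposite strand, at position 42 after the start, and the other windows hold none.

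Of the 35 genes, 3 changed over time, namely EPAS1, SLC2A1 and VEGFA, or 8.57% against 6.61% of all genes tested. The call of EPAS1 over time held in all 25 alternative settings tried, and those of SLC2A1 and VEGFA were lost in 19 and 22 of the 25. Across all 17 arrays the lowest and highest intensities of a gene differed by at most 6.97-fold after adding 16 (STC1), 6.53-fold for EPAS1 and 3.43-fold for SLC2A1. PGAM1, which encodes phosphoglycerate mutase, had the narrowest range, 3099 to 3902, or 1.26-fold. The map of changes from each clone's own time 0 shows all 35 genes.

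**Figure D1:**
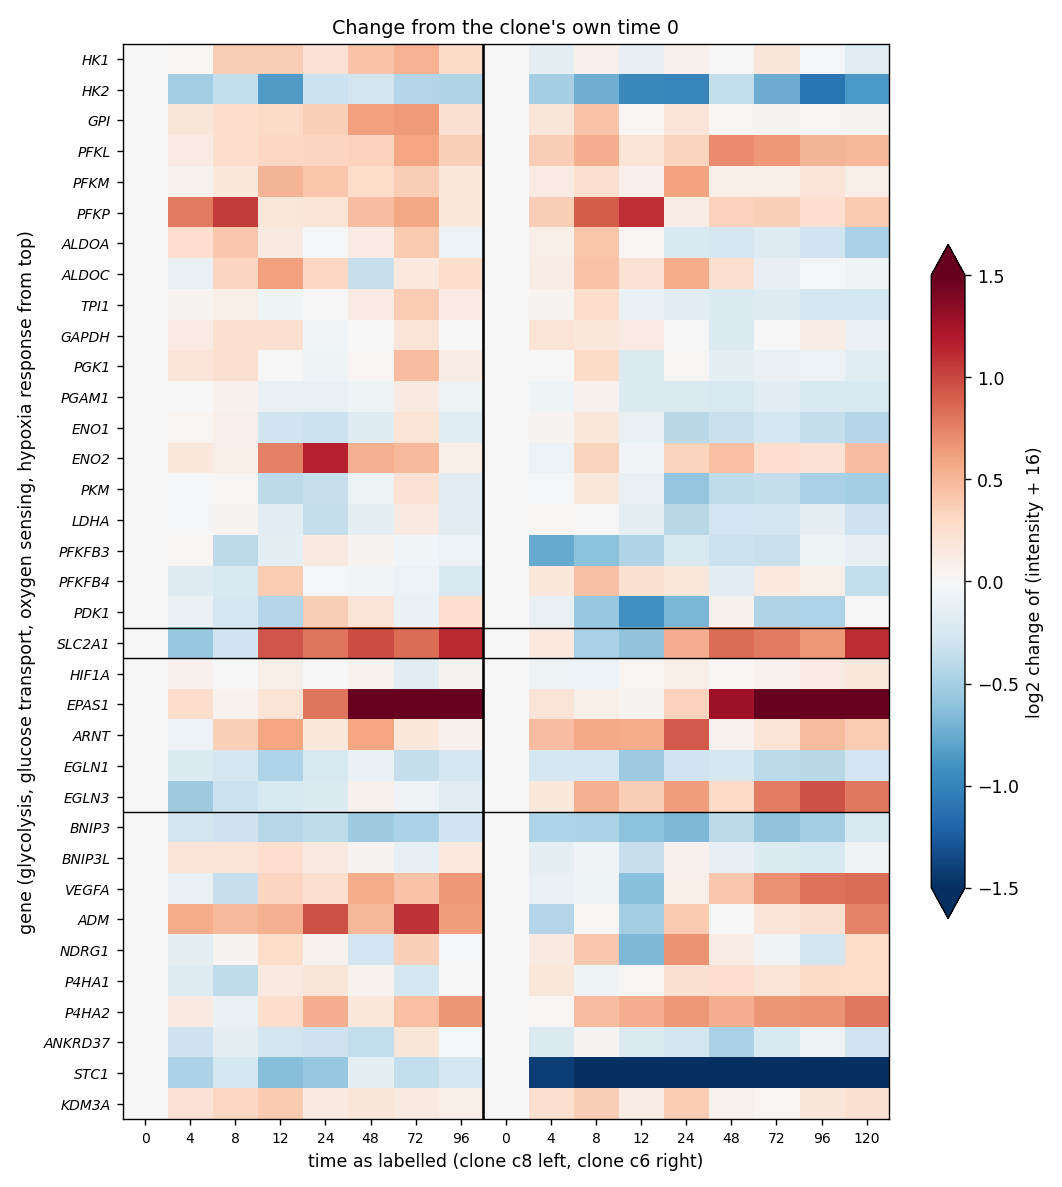
Log2 change of (intensity + 16) from the same clone's time 0 for the 35 genes tested (down) on each array (across, by time as labelled, clone c8 left and clone c6 right), with colours ending at a change of 1.5 in either direction. EPAS1 and SLC2A1 darken to red in the late arrays of both clones, STC1 is darkest blue in clone c6 alone, and most glycolysis genes stay pale.

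The genes of oxygen sensing moved apart from each other: EPAS1 rose late in both clones, HIF1A and ARNT passed no test over time, and neither hydroxylase gene did. In clone c8, EPAS1 had intensities of 15.6, 21.9, 16.7, 20.4, 38.9, 77.8, 104 and 88.0 at times 0, 4, 8, 12, 24, 48, 72 and 96. In clone c6, the EPAS1 intensities were 12.2, 16.2, 13.9, 12.9, 19.8, 51.9, 83.8, 137 and 168 at times 0, 4, 8, 12, 24, 48, 72, 96 and 120. All 6 late arrays lay above all 6 early arrays, and the early arrays lay only slightly above their own time 0. Late EPAS1 intensity averaged 90.1 ± 13.4 in clone c8, against 15.6 at its start, and 90.9 ± 42.9 in clone c6, against 12.2 at its start (SD, n = 3 late arrays each). The log2 change was 1.79 ± 0.19 late against start (3.46-fold, limma adjusted p = 1.96e-05) and 1.65 ± 0.16 late against early (3.15-fold, adjusted p = 7.41e-06). Early against start it was 0.14 ± 0.19 and was not called (adjusted p = 0.817). These folds are on the scale of intensity + 16 and understate the change, since the start lay near 16. The call held without either time 0 array (adjusted p = 0.00215 without that of clone c8 and 0.00151 without that of clone c6) and within each clone (adjusted p = 0.00791 in clone c8 and 0.0197 in clone c6). It rests on 1 of 3 EPAS1 probe sets: the other 2 fell below the filter, with log2 changes of 0.10 ± 0.21 and -0.07 ± 0.12.

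HIF1A, the ubiquitous alpha subunit, was bright on every array. Its intensities were 2025, 2124, 2036, 2154, 2029, 2095, 1807 and 2083 at times 0, 4, 8, 12, 24, 48, 72 and 96 in clone c8. In clone c6 they were 2297, 2172, 2158, 2341, 2458, 2329.5, 2389, 2510.2 and 2555 at times 0, 4, 8, 12, 24, 48, 72, 96 and 120. Late and early arrays overlapped in both clones. The log2 change late against start was 0.02 ± 0.09, with a 95% interval of -0.16 to 0.21 (adjusted p = 0.925), and its sign turned under median centring of the arrays. The interval does not reach the change of EPAS1.

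ARNT, the shared partner of both alpha subunits, had intensities of 321, 301, 417, 492, 361, 493, 360.0 and 335 in clone c8 at times 0, 4, 8, 12, 24, 48, 72 and 96. In clone c6 the ARNT values were 262, 368, 396, 392, 512, 274, 305, 372 and 347 at times 0, 4, 8, 12, 24, 48, 72, 96 and 120. All late arrays lay above their own time 0, yet the highest values came at times 12 and 48 in clone c8 and at time 24 in clone c6. The log2 change was 0.26 ± 0.19 late against start (adjusted p = 0.52) and 0.41 ± 0.19 early against start (adjusted p = 0.335). Over the 7 ARNT probe sets, late against start ran from -0.19 ± 0.18, in a set below the filter, to 0.45 ± 0.14 (limma adjusted p = 0.0819). None of those above the filter was called. EGLN1, the main hydroxylase of the alpha subunits, ranged over 304 to 450.5 and was lower than time 0 on all 12 early and late arrays, with log2 changes of -0.30 ± 0.10 late (adjusted p = 0.0964) and -0.33 ± 0.10 early (adjusted p = 0.112) against start, neither called. EGLN3, a hydroxylase that low oxygen itself induces, was dim at 6.4 to 27.3 and had a log2 change of 0.31 ± 0.22 late against start (adjusted p = 0.506).

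**Figure D2:**
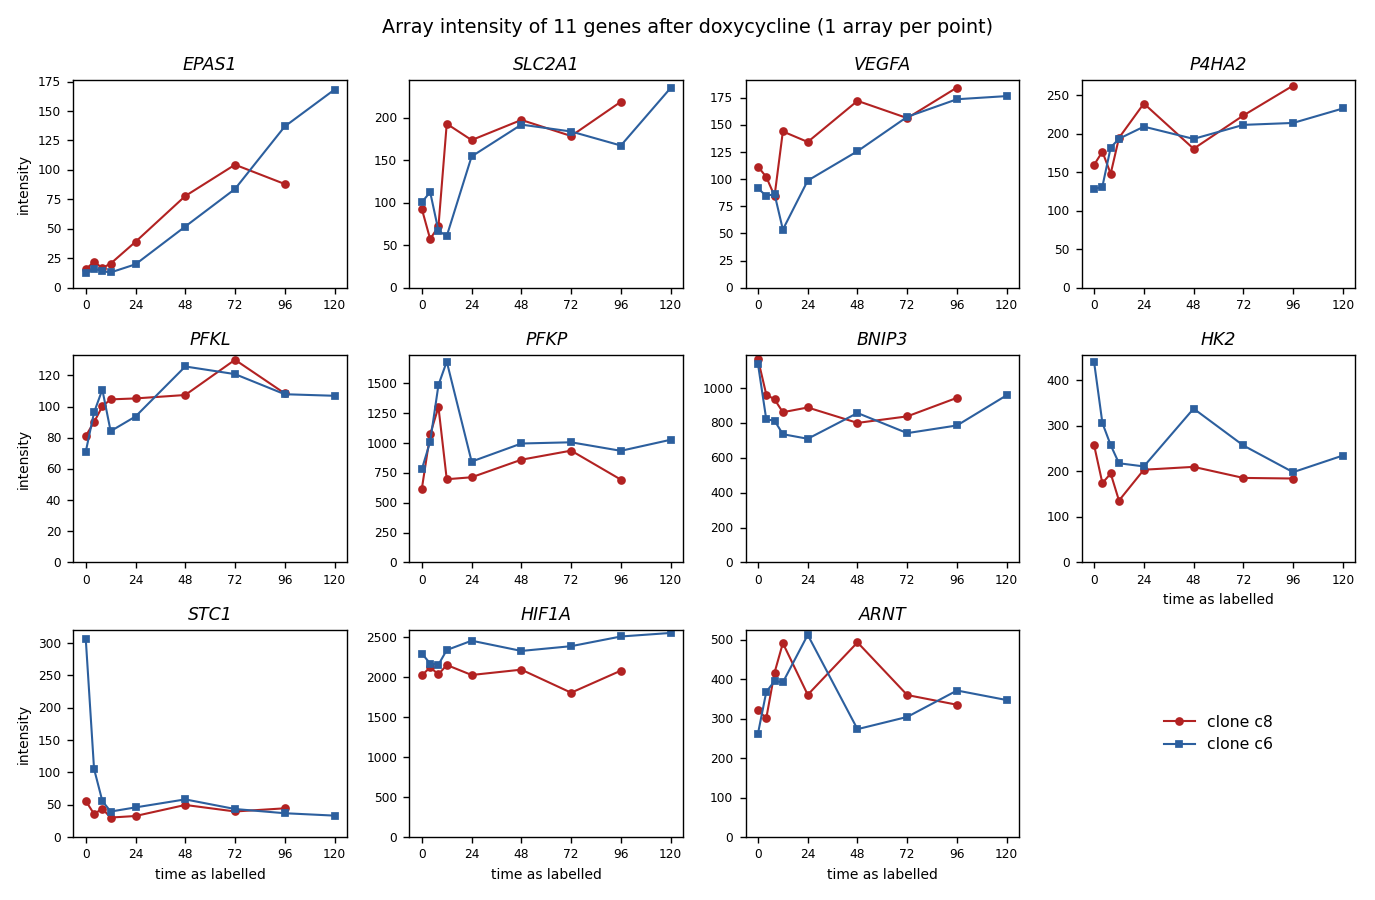
Intensity (linear scale, from 0) of 11 genes on each array against time as labelled, with clone c8 as red circles and clone c6 as blue squares, 1 array per point. EPAS1 leaves its starting level from time 24 on in both clones, BNIP3 and HK2 are highest at time 0, and the time 0 array of clone c6 stands alone for STC1.

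SLC2A1, the main glucose transporter of proliferating cells, rose late against early, and it was higher than time 0 on all 6 late arrays. Its intensities in clone c8 were 92.4, 57.1, 72.0, 193, 174, 197, 178 and 219 at times 0, 4, 8, 12, 24, 48, 72 and 96. In clone c6, SLC2A1 had 100.4, 112, 66.9, 60.6, 154, 192, 184, 167 and 235 at times 0, 4, 8, 12, 24, 48, 72, 96 and 120. The late arrays of clone c6 all lay above its early ones, whereas in clone c8 the array of time 12 lay among the late ones. Late intensity averaged 198 ± 20.2, against 107 ± 74.4 early, in clone c8, and 181 ± 12.5, against 80.0 ± 28.3 early, in clone c6 (SD, n = 3 arrays each). The log2 change was 1.01 ± 0.20 late against early (2.02-fold, limma adjusted p = 0.00576). Late against start it was 0.87 ± 0.27 and was not called (adjusted p = 0.0737). Within clones, late against early was 0.95 in clone c8 (adjusted p = 0.285) and 1.07 in clone c6 (adjusted p = 0.00625). Leaving out the time 12 array of clone c8 brought late against start past the threshold at the same log2 change (adjusted p = 0.00461). The other of 2 SLC2A1 probe sets fell below the filter, with 0.20 ± 0.20 late against start.

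Late against early, the comparison that uses no time 0 array, called 3 of the 35 genes (8.57%, against 5.18% of all genes). All 3, EPAS1, SLC2A1 and VEGFA, were higher and none was lower, against 3.77% of all genes higher and 1.41% lower. Arrays of neighbouring times stood in as replicates there. EPAS1 and VEGFA were the only 2 of the 35 whose late arrays all lay above the early ones in both clones, which held for 2.71% of all genes. None lay below in both clones, against 1.34% of all genes.

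The 10 measured genes known to respond to low oxygen did not move together. Late against start, P4HA2 rose, BNIP3 and STC1 fell and 7 did not pass, against 5.21% of all genes higher and 1.73% lower. VEGFA, the vessel growth factor, had intensities of 112, 102, 84.5, 144, 134, 172, 156 and 184 in clone c8 at times 0, 4, 8, 12, 24, 48, 72 and 96. In clone c6, VEGFA had 91.5, 84.6, 86.2, 53.5, 98.7, 126, 158, 174 and 177 at times 0, 4, 8, 12, 24, 48, 72, 96 and 120. Every late array lay above every early array of the same clone, and the lowest value was that of time 12 in clone c6. The log2 change was 0.75 ± 0.14 late against early (1.68-fold, limma adjusted p = 0.00294) and 0.59 ± 0.19 late against start (adjusted p = 0.0852, not called). Late against early alone was 0.59 in clone c8 (adjusted p = 0.205) and 0.90 in clone c6 (adjusted p = 0.0145). The other 3 VEGFA probe sets gave 0.23 ± 0.10, 0.13 ± 0.12 and 0.29 ± 0.16 late against early, none of them called.

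P4HA2, which encodes a subunit of the hydroxylase that matures collagen, had intensities of 159, 176, 148, 194, 239, 180.3, 224 and 262 in clone c8 at times 0, 4, 8, 12, 24, 48, 72 and 96. Clone c6 had P4HA2 intensities of 128, 131, 182, 193, 209, 193, 211, 214 and 233 at times 0, 4, 8, 12, 24, 48, 72, 96 and 120. All 6 late arrays lay above their own time 0, and late and early arrays overlapped in both clones. The log2 change late against start was 0.53 ± 0.14 (1.44-fold, limma adjusted p = 0.0272), and a second, dimmer probe set gave -0.40 ± 0.18 (adjusted p = 0.293). P4HA1, its paralogue, ranged over 122 to 217 and had a log2 change of 0.09 ± 0.13 (adjusted p = 0.794).

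BNIP3, a mitochondrial protein that drives mitophagy, was highest at time 0 in both clones. Clone c8 had 1166, 963, 935, 862, 889, 800.2, 838 and 944 at times 0, 4, 8, 12, 24, 48, 72 and 96. Clone c6 had 1138, 820.2, 813, 735, 709, 857, 742, 786 and 959 at times 0, 4, 8, 12, 24, 48, 72, 96 and 120. No later array of either clone reached its time 0. BNIP3 fell by 0.47 ± 0.10 on the log2 scale late against start (limma adjusted p = 0.00707) and by 0.43 ± 0.10 early against start (adjusted p = 0.0377), while late against early it was -0.04 ± 0.07 (adjusted p = 0.841). A second BNIP3 probe set gave -0.16 ± 0.14 late against start and was not called (adjusted p = 0.637). BNIP3L, the related mitophagy receptor, ranged over 764 to 1023 and had a log2 change of -0.08 ± 0.11 (adjusted p = 0.777).

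STC1, a secreted glycoprotein, was called lower late against start, and the call rested on the time 0 array of clone c6. Clone c8 had STC1 intensities of 56.1, 35.9, 43.9, 30.3, 32.7, 49.8, 39.7 and 44.6 at times 0, 4, 8, 12, 24, 48, 72 and 96. Those of clone c6 were 307, 106, 55.9, 39.6, 46.0, 58.4, 43.5, 37.0 and 33.3 at times 0, 4, 8, 12, 24, 48, 72, 96 and 120. The time 0 array of clone c6 stood far above every other array, and time 0 was also the highest in clone c8. The log2 change was -1.32 ± 0.33 (limma adjusted p = 0.0223). Without the time 0 array of clone c6 it was -0.39 (adjusted p = 0.746), and without that of clone c8 it was -2.24 (adjusted p = 0.000663). The other 2 STC1 probe sets gave -1.07 ± 0.25 (adjusted p = 0.0163) and -0.77 ± 0.29 (adjusted p = 0.165) over all arrays.

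The remaining genes of this group passed no test over time. ADM, the vasodilator peptide adrenomedullin, was dim at 11.2 to 57.1 and had a log2 change of 0.44 ± 0.20 late against start (adjusted p = 0.266). NDRG1, a stress response gene, ranged over 36.5 to 118, with -0.03 ± 0.24 (adjusted p = 0.969). KDM3A, a histone demethylase, ranged over 443 to 681, with 0.11 ± 0.11 (adjusted p = 0.659), and lay above its own time 0 on all 6 late arrays. ANKRD37, an ankyrin repeat protein, ranged over 64.8 to 110.5, with -0.17 ± 0.14 (adjusted p = 0.582).

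Late against start called 6 of the 35 genes (17.1%, against 6.94% of all genes). Of these 3 rose (EPAS1, PFKL and P4HA2) and 3 fell (BNIP3, STC1 and HK2), or 8.57% each way, against 5.21% of all genes higher and 1.73% lower. The median log2 change of the 35 genes was 0.02, and that of all genes tested was 0.02. The count of 6 was 2 without the time 0 array of clone c8 and 1, EPAS1, without that of clone c6. Early against start called 3 of the 35 genes (8.57%, against 2.01% of all genes), PFKP higher and HK2 and BNIP3 lower, against 1.29% and 0.724% of all genes. The early count was 1 without the time 0 array of clone c8 and 0 by limma without that of clone c6. Late against start and early against start share both time 0 arrays, so their values are given side by side and not set against each other.

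**Figure D3:**
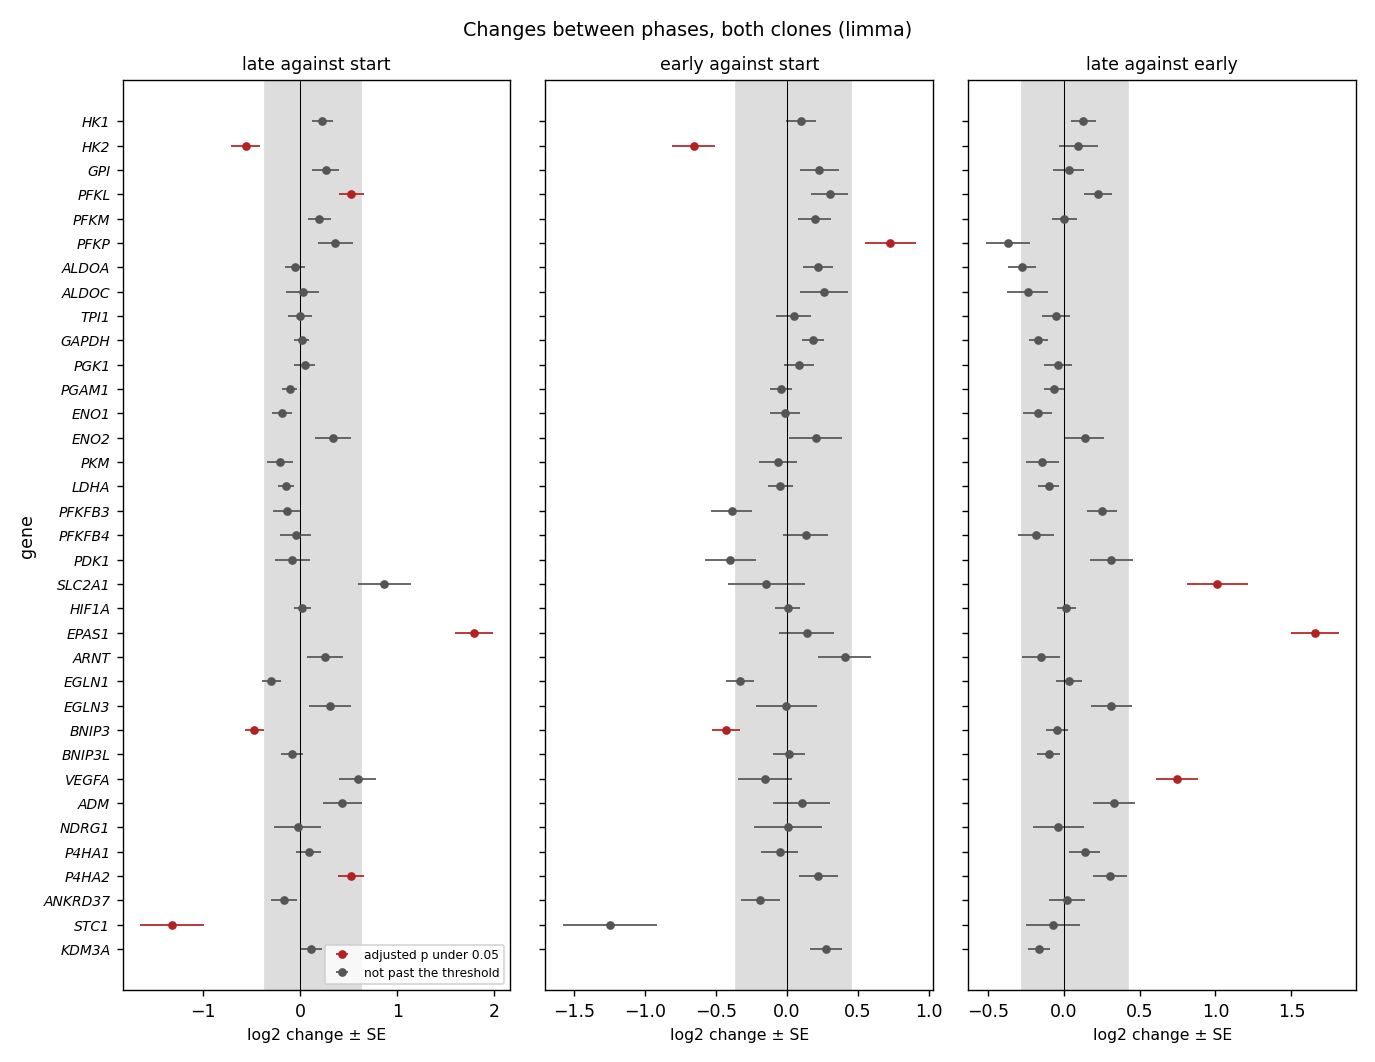
Log2 changes (points) with standard errors (bars) of the 35 genes in the 3 comparisons of phases, with calls at an adjusted p under 0.05 in red and the 5th to 95th percentile of all genes tested as a grey band. EPAS1 lies far outside the band in both comparisons of late arrays, and most glycolysis genes lie inside it in all 3.

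Late against start, 1 of the 19 glycolysis genes rose, 1 fell and 17 did not pass. Of all genes tested, 5.21% were higher and 1.73% lower. Among the 19, 14 had log2 changes smaller than 0.25 in size. The 5th to 95th percentile of all genes was -0.36 to 0.63. Averaged over both clones, late levels of the abundant enzymes lay close to the start, while clone c6 lay lower for some. At times 48, 72 and 96 of clone c6, PKM had log2 changes of -0.38, -0.36 and -0.48 from time 0. ENO1 had -0.34, -0.27 and -0.36 there. In clone c8 they were -0.08, 0.22 and -0.16 for PKM and -0.19, 0.21 and -0.18 for ENO1. Over time none of the 19 was called, and 8 of the 19 had an unadjusted limma p under 0.05, a larger share than the 2588 of all 13675 genes. ALDOA had the smallest adjusted p of the 19 over time, 0.0507 by limma. Its 6 early arrays all lay above their own time 0. Late against start over both clones, GAPDH had a log2 change of 0.02 ± 0.08 with a 95% interval of -0.15 to 0.18. PGK1, phosphoglycerate kinase, had 0.05 ± 0.11, with an interval of -0.18 to 0.27. TPI1, triosephosphate isomerase, had -0.00 ± 0.12, with an interval of -0.26 to 0.26. The signs of these 3 genes turned under quantile normalization or median centring. LDHA, lactate dehydrogenase A, had intensities of 4731 to 6839.7 and a log2 change of -0.14 ± 0.09. The lowest LDHA array was that of time 24 in each clone. At time 24, which is neither early nor late, PKM had -0.59 in clone c6 and -0.34 in clone c8 from time 0. ENO1 had -0.41 and -0.32 there. On the time 24 array of each clone, 9 of the 19 genes lay above time 0.

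The aldolases, PGAM1, the enolases, PKM and GPI did not pass late against start either. ALDOA and ALDOC, the aldolases of muscle and brain, had log2 changes of -0.05 ± 0.10 and 0.03 ± 0.17 late against start, the ALDOC sign turning under both other scalings. PGAM1 had -0.11 ± 0.08, ENO1, the ubiquitous enolase, -0.19 ± 0.10, and PKM, pyruvate kinase, -0.21 ± 0.13. ENO2, the neuronal enolase, had 0.34 ± 0.19 (adjusted p = 0.359) and was higher than its own time 0 on all 6 late arrays. GPI, phosphoglucose isomerase, had 0.26 ± 0.13 (adjusted p = 0.326), also with all 6 late arrays higher.

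The hexokinases and phosphofructokinases, which catalyse regulated steps of glycolysis, held the calls of this group. HK2, the inducible hexokinase, had intensities of 258, 174, 195, 136, 204, 209.9, 186 and 184 in clone c8 at times 0, 4, 8, 12, 24, 48, 72 and 96. In clone c6, HK2 had 440.1, 306, 258, 218, 211, 338, 257, 198 and 235 at times 0, 4, 8, 12, 24, 48, 72, 96 and 120. Time 0 was the highest array of each clone, and clone c8 was the lower at all 8 shared times. HK2 fell by 0.56 ± 0.15 late against start (limma adjusted p = 0.0325) and by 0.66 ± 0.15 early against start (adjusted p = 0.0334). The other 2 HK2 probe sets gave 0.15 ± 0.18 and -0.08 ± 0.17 late against start, neither called. HK1, the constitutive hexokinase, ranged over 682 to 1064, with a log2 change of 0.23 ± 0.11 (adjusted p = 0.266).

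PFKL, the liver-type phosphofructokinase, had intensities of 81.1, 90.0, 100.1, 105, 105, 107, 130.0 and 108 in clone c8 at times 0, 4, 8, 12, 24, 48, 72 and 96. In clone c6, PFKL had 71.0, 96.2, 111, 84.2, 93.6, 126, 121, 108 and 107 at times 0, 4, 8, 12, 24, 48, 72, 96 and 120. Time 0 was the lowest array of each clone. The log2 change late against start was 0.53 ± 0.13 (1.44-fold, limma adjusted p = 0.0209), and a second probe set gave 0.50 ± 0.14 (adjusted p = 0.0467).

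PFKP, the platelet-type form, rose early against start. Its intensities were 619, 1074, 1303, 697, 714, 861, 937 and 694 in clone c8 at times 0, 4, 8, 12, 24, 48, 72 and 96. In clone c6, PFKP had 782, 1012, 1487, 1684, 845, 997, 1007, 935 and 1028 at times 0, 4, 8, 12, 24, 48, 72, 96 and 120. The peak fell at time 8 in clone c8 and at time 12 in clone c6, and both clones were lower again by time 24. The log2 change was 0.73 ± 0.18 early against start (1.66-fold, limma adjusted p = 0.0491) and -0.37 ± 0.14 late against early (adjusted p = 0.198, not called). A dimmer PFKP probe set gave -0.28 ± 0.20 early against start (adjusted p = 0.633). PFKM, the muscle-type form, ranged over 584 to 1198, with 0.20 ± 0.12 late against start (adjusted p = 0.419).

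Without the time 0 array of clone c6, the adjusted p was 0.342 for PFKL, 0.432 for P4HA2, 0.238 for BNIP3 and 0.531 for HK2 late against start, and 0.509 for PFKP early. Without that of clone c8 it was 0.13 for PFKL, 0.122 for P4HA2, 0.0574 for BNIP3, 0.0943 for HK2 and 0.348 for PFKP, so none of these 5 calls held with a single time 0 array.

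The 3 regulators of flux completed the group, and none passed a test over time. PFKFB3 and PFKFB4, which make the activator of phosphofructokinase, had log2 changes of -0.14 ± 0.14 and -0.05 ± 0.16 late against start. PDK1, which inhibits pyruvate dehydrogenase and so keeps pyruvate from becoming acetyl-CoA, had -0.08 ± 0.18 late and -0.40 ± 0.18 early against start (adjusted p = 0.331 for the early value), with all 6 early arrays below their own time 0.

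Some arrays lay high or low for many glycolysis genes at once. On the array of time 72 of clone c8, 15 of the 19 lay above the clone's time 0, with a median log2 change of 0.22, and for 13 of all 35 genes it held the highest value among the 8 arrays of that clone. On the array of time 8 of clone c6, 16 of the 19 lay above time 0, with a median of 0.24. On that of time 8 of clone c8, 15 of the 19 did, with a median of 0.09. On the late arrays of clone c6 at times 48, 72 and 96 the medians were -0.16, -0.12 and -0.08. The median change of all genes tested on these arrays was 0.01 to 0.05.

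Whether the clones responded alike was tested as the late against early change of clone c8 minus that of clone c6. None of the 35 genes and none of all genes tested passed by limma (0%), while 4 of the 35 and 8.72% of all genes had an unadjusted p under 0.05. Those 4 were glycolysis genes: PKM at 0.54 ± 0.18, TPI1 at 0.48 ± 0.15, GPI at 0.43 ± 0.17 and ENO1 at 0.36 ± 0.17, with adjusted p-values of 0.528 to 0.57. The clone difference of EPAS1 was -0.17 ± 0.32, with a 95% interval of -0.86 to 0.51. That of SLC2A1 was -0.12 ± 0.42, with an interval of -1.01 to 0.77, and that of VEGFA was -0.31 ± 0.27, with an interval of -0.88 to 0.26. A missed threshold does not show that the clones responded alike.

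The clones did differ in level, with 13 of the 35 genes called (37.1%), against 21.7% of all genes. Over the 8 shared times, 11 of the 35 genes were lower and 2 higher in clone c8 than in clone c6 (31.4% and 5.71%), against 10.2% lower and 11.4% higher among all genes tested. Of the 19 glycolysis genes, 8 were lower and 2 higher. ALDOA averaged 2334 ± 306 in clone c8 and 3246 ± 579.9 in clone c6 (SD, n = 8 arrays each, log2 difference -0.46 ± 0.06, limma adjusted p = 0.000174), and it was lower in clone c8 at all 8 times. GPI averaged 915 ± 142 in clone c8 and 1317 ± 144 in clone c6 (log2 difference -0.53 ± 0.08, adjusted p = 0.000452), and GAPDH 6634 ± 563 in clone c8 and 8224 ± 723 in clone c6 (-0.31 ± 0.05, adjusted p = 0.000354), both again lower in clone c8 at all 8 times. With quantile normalization the GAPDH difference was -0.10 (adjusted p = 0.0252). TPI1 differed by -0.39 ± 0.07, PDK1 by -0.53 ± 0.11, HK2 by -0.47 ± 0.09, PFKM by -0.35 ± 0.07 and PFKP by -0.33 ± 0.11.

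PFKFB3 went the other way. It averaged 251 ± 28.1 in clone c8 and 162 ± 30.9 in clone c6 (SD, n = 8 arrays each), a log2 difference of 0.60 ± 0.09 (limma adjusted p = 0.000252), with clone c8 higher at all 8 times. HK1 was higher in clone c8 by 0.21 ± 0.07 (adjusted p = 0.0335). Among the oxygen genes, HIF1A was lower in clone c8 at all 8 times, with a log2 difference of -0.19 ± 0.05 (adjusted p = 0.0198), and P4HA1 and KDM3A were lower too, with -0.27 ± 0.08 (adjusted p = 0.0248) and -0.21 ± 0.07 (adjusted p = 0.0356). EPAS1 differed by 0.21 ± 0.12 and was not called (adjusted p = 0.239). Each clone is 1 line, so these are differences between these lines, and NOTCH3 intensity was itself higher in clone c8 at all 8 shared times.

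**Figure D4:**
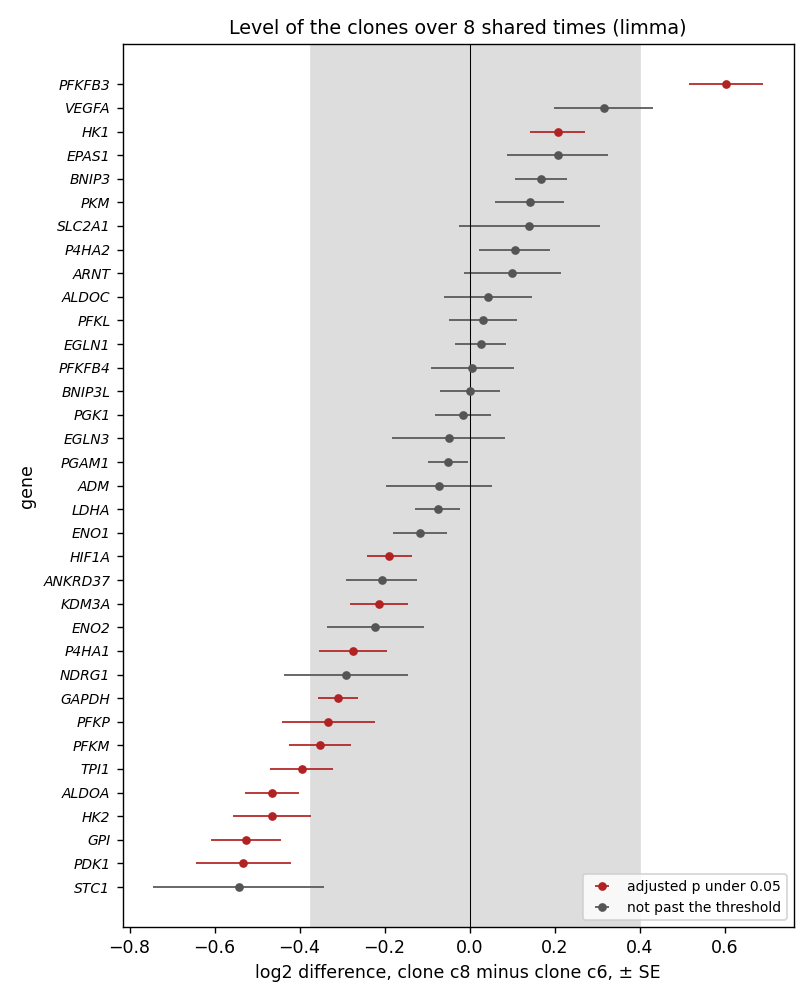
Log2 difference in level, clone c8 minus clone c6, over the 8 shared times (points, with standard errors as bars) for the 35 genes in order of size, with calls at an adjusted p under 0.05 in red and the 5th to 95th percentile of all genes tested as a grey band. PFKFB3 and HK1 are the called genes above 0, and the 11 called genes below 0 include ALDOA, GPI, GAPDH, TPI1 and HIF1A.

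Further genes of the same pathways gave the surroundings of these results. Of 47 other measured genes known to respond to low oxygen, 7 rose, 1 fell and 39 did not pass late against start. Their median log2 change was 0.15. Of all genes tested, 5.21% were higher and 1.73% lower, with a median of 0.02. CXCR4, a chemokine receptor, rose by 3.11 ± 0.26 (limma adjusted p = 2.38e-06), TMEM45A, a membrane protein, by 3.20 ± 0.32 (adjusted p = 1.01e-05) and IGFBP3, a binding protein of insulin-like growth factors, 8.003-fold (SE 0.34 on the log2 scale, adjusted p = 3.42e-05). Over time 11 of the 47 were called, against 6.61% of all genes. Late against early, 6 of the 47 rose and 2 fell, against 3.77% of all genes higher and 1.41% lower. Of 17 other genes of oxygen sensing none passed late against start by limma and 1 had an unadjusted p under 0.05. That gene was KDM5B, a histone demethylase, which had 0.42 ± 0.13 late against start (adjusted p = 0.0636) and was the 1 of the 17 called over time (adjusted p = 0.0430) and early against start, higher by 0.58 ± 0.13 (adjusted p = 0.0284). Of 20 other genes of glycolysis, lactate and glucose transport, 2 fell late against start, against 1.73% of all genes, and 18 did not pass. SLC2A13, a transporter of myo-inositol, had -0.68 ± 0.18 (adjusted p = 0.0282), SLC16A7, a transporter of lactate and pyruvate, -0.59 ± 0.17 (adjusted p = 0.0453), and TXNIP, which restrains glucose uptake, 0.88 ± 0.27, not called (adjusted p = 0.0617). Among 8 regulators of glycolysis genes, MYC rose late against start by 3.89 ± 0.38 (adjusted p = 9.06e-06) with time 0 intensities of 1.6 in clone c8 and 1.3 in clone c6, and the other 7 did not pass.

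Markers of other cell types were read beside these values, with tests given late against start. The 6 endothelial markers, whose cell type is rich in EPAS1, summed to intensities of 46.1 to 74.7 on the late arrays, 37.2 to 64.7 on the early arrays and 47.5 to 60.4 at the start, and 4 of the 6 stayed under 16 on all late arrays. Neither of the 2 that were tested passed by limma, and neither had an unadjusted p under 0.05. The 4 blood cell markers summed to 33.1 to 59.6 on the late arrays, against 35.3 to 40.8 at the start. The 4 Schwann and glial markers summed to 13.7 to 51.0 on the late arrays, against 9.4 to 37.2 at the start. Of these lists 2 blood cell genes and 1 glial gene were tested, and none passed by limma or had an unadjusted p under 0.05. The 7 fibroblast markers summed to 4691 to 8489 on the late arrays, against 934 to 1302 at the start. Most of the late sum was COL3A1, at 3306 to 6491, against 8.4 at the start of clone c6 and 10.2 at that of clone c8. Of the 6 tested, PDGFRA fell and COL1A1 and COL1A2 did not pass, and FAP stayed under 16 on all arrays. The other 3 rose, COL3A1 by 7.56 ± 0.44, LUM by 3.85 ± 0.33 and DCN by 0.85 ± 0.21. These 3 were called higher in the same comparison as EPAS1 and P4HA2, and their part in those results was not tested. Of 11 sympathetic neuroblastoma markers tested, 2 rose (GATA2 and STMN2) and 2 fell (DBH and PHOX2A). MYCN was bright on all arrays and TH was not above 8.5 on any.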

How the data were processed

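RNA of 17 IMR32 cultures or samplings, 9 of clone c6 and 8 of clone c8, was read on Affymetrix arrays. The authors deposited linear-scale probe set intensities, made with MAS5 and GCOS, per the submitters' processing notes, which name no versions. From the values, a trimmed mean (2% off each end) was equal on all arrays. No scanner file or detection call entered the work, and precision is limited by how many arrays there are.

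The platform annotation gave 1 symbol to 41097 of 54675 probe sets, several to 1801, and listed none for 11777. RefSeq (GRCh38.p14) held 41043 of those gene identifiers and altered no symbol. The probe annotation's own build was not given in the sources used here. Values were taken as log2(intensity + 16). A gene was read through its brightest probe set and kept if the mean reached 4.68, the 40th percentile. Promoter windows were searched by letters on both strands.

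Tests were limma 3.58.1 fits under R 4.3.3, with moderated variances that follow an intensity trend, run over 13675 genes with Benjamini-Hochberg adjustment at 0.05 and tested on simulated data. The comparisons with time 0 and the test over time share 1 model of 17 arrays (time as a factor, plus clone). The 12 early and late arrays served late against early and its clone difference, and the 16 arrays of shared times the clone level. The clone, named in the labels, pairs the 2 arrays of a time. Across genes, clone differences at different times correlated at 0.13 to 0.49. Since the labels do not call the times separate cultures, p-values cover the spread between these arrays alone. Arrays had at most 1.42% of values in common, so none was a copy of another. Such a check cannot show that the arrays are of separate cultures. Each array was counted as a sample.

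The 38 genes and the further lists were chosen with earlier results of these data known. All arrays are given for genes past the threshold over time and for HIF1A, EPAS1 and ARNT, ranges for the rest, and at most 3 genes of smallest late against start p per further list, besides marker genes that changed or were absent. Alternatives changed the pseudocount (1 or 64), scaling (quantile or median), filter (none or 60th percentile), probe sets (averaged), variance trend (none), clone term (none) and time terms (phase means), or used 1 clone, or dropped 1 array. Fits of each probe set of the 38 genes were added after seeing the data.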

Additional observations from a re-analysis of the deposited data

Results flagged for a closer look

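TPI1 and PGK1 were singled out because all 3 late arrays of clone c8 lay above that clone's time 0 while all 3 late arrays of clone c6 lay below its own. The mean late log2 change of TPI1 was 0.21 in clone c8 and -0.22 in clone c6. That of PGK1 was 0.20 in clone c8 and -0.11 in clone c6. This opposite pattern against time 0 was not itself tested. The clone difference in late against early change did not pass for either gene, with limma adjusted p-values of 0.528 for TPI1 and 0.748 for PGK1. The same pattern held for 1040 of all 13675 genes tested (7.61%), against 2 of the 35 genes described here (5.71%).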

How the results depend on the processing

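EPAS1 kept its call in all 29 alternatives tried for late against start (adjusted p of 5.35e-06 to 0.0205), all 23 for late against early and all 25 for change over time, and GPI, ALDOA, GAPDH and PFKFB3 kept theirs in level in all 24, although the GAPDH difference, -0.31 in the fit reported, was -0.10 with quantile normalization (adjusted p = 0.0252). Late against early, the call of SLC2A1 was lost in 1 of 23 alternatives (clone c8 alone) and that of VEGFA in 2 (clone c8 alone, and averaged probe sets, adjusted p = 0.0503). Their calls over time were lost in 19 and 22 of 25. Late against start, calls were lost in 6 of 29 alternatives for BNIP3, 8 for PFKL, 8 for STC1, 9 for P4HA2 and 13 for HK2, and early against start in 13 for HK2, 16 for BNIP3 and 23 for PFKP, all in the same direction. With median centring, the late against start calls of PFKL and P4HA2 were lost (limma adjusted p = 0.084 and 0.101). Those of EPAS1, BNIP3, STC1 and HK2 held there. Besides the time 0 arrays, single arrays whose removal ended a late call were those of time 48 in clone c6 (PFKL, P4HA2 and STC1), time 72 in clone c6 (HK2 and STC1), time 96 in clone c6 (PFKL, HK2 and STC1) and times 48 and 72 (HK2) and 96 (P4HA2) in clone c8. The near-zero change of HIF1A late against start was -0.050 with median centring, -0.024 in clone c8 alone and -0.018 to 0.062 with an array left out, lowest without time 72 of clone c6. Of the genes described here, 1 changed over time (3 in the fit reported) with a pseudocount of 1, quantile normalization, median centring, no filter, the 60th percentile filter or no intensity trend, and all genes called numbered 599 with averaged probe sets and 591 with no trend (904 in the fit reported). Late against start called 3 with averaged probe sets, 1 in clone c8 alone (93 of all genes) and 2 in clone c6 alone (303). Early against start called 1 with median centring and 0 with no filter (140 of all genes), averaged probe sets, no trend (146), phase means (91), clone c8 alone (15) or clone c6 alone (4). Late against early called 1 in clone c8 alone (179 of all genes) and 5 in clone c6 alone. Without the clone as replicate block the counts were 1 over time (369 of all genes), 1 late against start (506) and 0 early against start (63), and the other counts stayed within 1.5 times. Leaving out each array in turn gave 1 to 5 of these genes and 556 to 1190 of all genes over time, 1 to 9 and 373 to 1091 late against start, 0 to 3 and 24 to 425 early against start, 3 to 5 and 497 to 1244 late against early, and 9 to 13 and 2230 to 2712 in level. The highest count late against early, with 3 higher and 2 lower, came without the time 12 array of clone c8. Why these counts moved was not tested, apart from the smaller number of arrays in the fits of single clones and without an array. Dim genes such as EGLN3 and ADM lie close to the pseudocount, which limits what their folds can show.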

Other observations

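The neighbouring routes of glucose carbon gave no call late against start by limma. Of 25 measured genes of pyruvate oxidation and the citric acid cycle, none passed late against start by limma, 1 had an unadjusted p under 0.05, and the median log2 change was -0.02. PDP1, the phosphatase that activates pyruvate dehydrogenase, had the smallest p there, with -0.36 ± 0.12 (limma adjusted p = 0.113). In level, 9 of these 25 genes were higher and 1 was lower in clone c8 than in clone c6, or 10 of 25 called, against 21.7% of all genes (11.4% higher and 10.2% lower). Of 6 genes of the pentose phosphate pathway, none passed late against start by limma and none had an unadjusted p under 0.05. Late against early, 1 of the 25 and 1 of these 6 were called lower by limma and none higher, against 1.41% of all genes lower and 3.77% higher. In that comparison 3 of the 6 had an unadjusted p under 0.05, against 2184 of all 13675 genes. Of 6 proliferation markers, none passed late against start and 1 had an unadjusted p under 0.05, with log2 changes of -0.35 to -0.00. Over time, 2 of the 6 were called, against 6.61% of all genes. MKI67 went from 653 at time 0 to its lowest value, 199.6, at time 24 in clone c6. In clone c8 it went from 573 at time 0 to its lowest, 286.5, at time 12.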
